A study of Mus musculus with 6 samples.

Results

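The 9 genes described here encode transcription factors that set the fate of T cells, namely Tcf7, Tox, Eomes, Tbx21, Gata3, Foxp3, Ikzf2, Bcl6 and Prdm1. They were chosen by name and not by a filter on their values, though earlier results of these data were known. All 9 were found among the 55291 genes of the deposited table. The data are bulk sequencing of polyadenylated RNA from 6 mouse liver tumours, 1 library each, in 2 groups of 3. The MKO_PD1 tumours came from Trem2-MKO mice, in which Trem2 is deleted in myeloid cells, and the Cre_PD1 tumours came from LysM-Cre mice, the controls that carry the recombinase. LysM-Cre acts in macrophages, monocytes and neutrophils, so the deletion is not aimed at T cells. Both groups carried RIL-175/PD-1R tumours, where RIL-175 is a line of mouse liver cancer cells and PD-1R is not spelled out in the labels. Both groups had been given anti-PD-1, an antibody to an inhibitory receptor on T cells, and no tumour without it is part of the series. The design text counts 3 mice per group, and the labels give neither age, sex nor strain beyond these names. The comparison asks which of the 9 genes differ with the loss of myeloid Trem2 in tumours under anti-PD-1.

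T cells leave the naive state along branches that are each held by a few DNA-binding proteins. TCF-1, the product of Tcf7, keeps naive, memory and stem-like T cells, the cells known in mice to multiply under PD-1 blockade. TOX installs the exhausted state under lasting antigen. T-bet, from Tbx21, and EOMES, from Eomes, are related T-box proteins that drive cytotoxic genes and interferon gamma in CD8 T cells, type 1 helper cells and NK cells. GATA3 drives type 2 helper cells and ILC2, FOXP3 defines regulatory T cells, and Helios, from Ikzf2, is found in many of them. BCL6 drives follicular helper cells, and Blimp-1, from Prdm1, is its antagonist and drives effector cells and plasma cells. Several of these genes also work outside T cells, GATA3 and Blimp-1 among them in epithelia.

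The promoters of 3 members are shown because their profiles mark the contrast described further on, Tbx21 moving with T cell genes and Gata3 and Prdm1 moving with each other and with keratin genes. Each window runs 5′ to 3′ on the minus strand of GRCm38.p6, from 250 bases before to 50 bases after the RefSeq start. They lie at chr11:97115282-97115581 (Tbx21), chr2:9878551-9878850 (Gata3) and chr10:44458699-44458998 (Prdm1). Capitals mark a match to 1 of 5 motifs searched on both strands.
Tbx21: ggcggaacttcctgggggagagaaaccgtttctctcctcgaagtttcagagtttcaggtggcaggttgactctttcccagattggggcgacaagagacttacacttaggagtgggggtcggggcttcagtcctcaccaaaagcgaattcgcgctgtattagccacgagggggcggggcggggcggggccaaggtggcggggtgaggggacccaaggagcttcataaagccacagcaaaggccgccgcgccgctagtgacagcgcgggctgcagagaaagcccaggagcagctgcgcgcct
Gata3: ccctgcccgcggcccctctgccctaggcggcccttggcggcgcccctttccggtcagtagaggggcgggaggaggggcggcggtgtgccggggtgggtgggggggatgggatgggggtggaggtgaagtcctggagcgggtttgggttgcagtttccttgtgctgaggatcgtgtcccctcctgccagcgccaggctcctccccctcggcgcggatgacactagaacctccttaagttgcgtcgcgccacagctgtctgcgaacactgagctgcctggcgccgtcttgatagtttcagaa
Prdm1: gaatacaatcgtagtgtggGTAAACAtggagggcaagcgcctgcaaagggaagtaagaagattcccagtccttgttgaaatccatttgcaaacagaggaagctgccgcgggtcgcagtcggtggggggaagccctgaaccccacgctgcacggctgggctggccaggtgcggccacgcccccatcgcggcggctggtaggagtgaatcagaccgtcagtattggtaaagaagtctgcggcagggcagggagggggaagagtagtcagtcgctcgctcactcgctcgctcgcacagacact
The motifs were the TCF/LEF letters CTTTGA, the GATA letters AGATAA, the T-box letters GGTGTGA, the PRDM1 letters AAAGTGAAA and the forkhead letters TGTTTAC. The Prdm1 window held the forkhead letters on its other strand, at position -231 from the start, as do 3.65% of the 32851 promoters of the same length. The windows of Tbx21 and Gata3 held none of the 5. G and C made up 62.0% of the Tbx21 window, 67.3% of the Gata3 window and 59.7% of the Prdm1 window, against a median of 52.7% over all promoters. A match of letters is a description of the window and not a binding site. RefSeq windows were at hand for 7 of the 9 members.

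The libraries held 26747630 to 34265336 reads that could be recovered from the table, so 1 read on 1 kb of exon was worth 0.0763 to 0.114 TPM. TPM here is the deposited value rescaled to 1000000 per library, a level per unit of exon length. Trem2 itself had 7.68, 18.0 and 6.81 TPM in MKO_PD1 replicates 1, 2 and 3, against 10.5, 16.5 and 14.9 TPM in Cre_PD1 replicates 1, 2 and 3. The groups overlapped (limma adjusted p = 0.432), and reads over the whole gene do not measure a deletion of exons that the labels leave unnamed. MKO_PD1 replicates 1 and 3 held far more RNA of hepatocyte markers than the other libraries, with 107534 and 74007 summed TPM over 12 genes, against 25117 in MKO_PD1 replicate 2 and 9255 to 20052 in the Cre_PD1 tumours. Replicates are given below in the order 1, 2 and 3 of each group.

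Only Tcf7 was higher in every MKO_PD1 tumour than in every Cre_PD1 tumour, and only Gata3 and Prdm1 were lower in every one, among the 9 genes. The other 6 overlapped between the groups. The fit over all genes took in the 16506 that reached 1 TPM in 3 libraries or more, and 0 of the 8 members tested passed an adjusted p of 0.05 (limma with Benjamini-Hochberg adjustment, smallest adjusted p = 0.168). Across all tested genes 2 passed, or 0.0121%. At an unadjusted p under 0.05 there were 3 members, Tcf7, Gata3 and Prdm1, against 27.9% of all tested genes. Genes without overlap and higher in MKO_PD1 made up 10.1% of all tested genes, and those lower 28.9%, so 1 and 2 of 8 members do not stand out from the background. The median log2 difference was -0.03 over the 8 members and -0.42 over all tested genes. Foxp3 reached 1 TPM in only 2 libraries and was not part of that fit.

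The knockout tumours differed among themselves more than the controls did. The highest MKO_PD1 tumour exceeded the lowest by a median of 5.31-fold over the 9 genes, against 1.44-fold among the Cre_PD1 tumours. MKO_PD1 replicate 1 was the lowest of all 6 libraries for 8 of the 9 genes, all but Tcf7. MKO_PD1 replicate 2 was the highest for 5 of them, Tox, Eomes, Tbx21, Foxp3 and Bcl6. In bulk tissue, fewer cells of a type and less RNA per cell cannot be told apart.

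**Figure D1:**
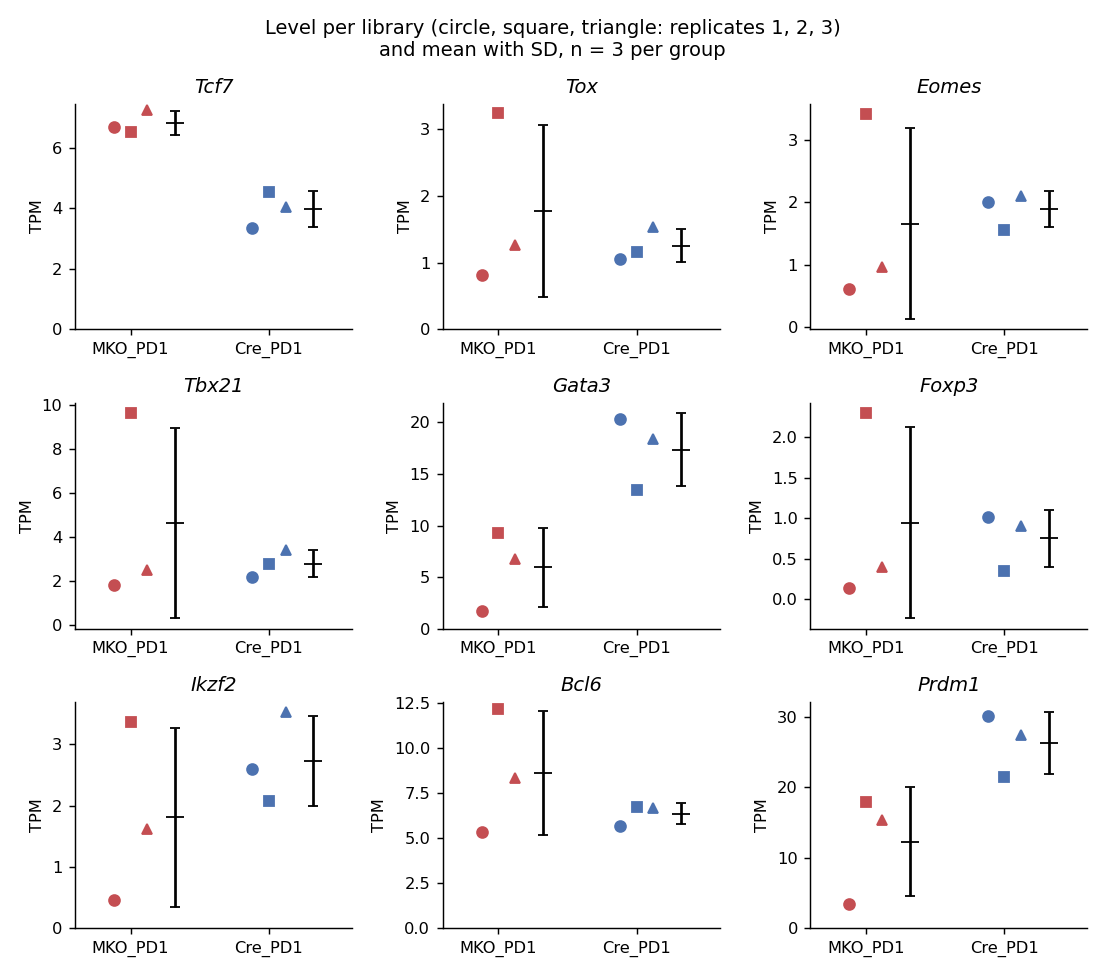
TPM of each of the 9 genes in every library, MKO_PD1 on the left and Cre_PD1 on the right of each panel, with the group mean and SD (n = 3). Tcf7 is higher and Gata3 and Prdm1 are lower in the MKO_PD1 tumours without overlap, and MKO_PD1 replicate 2 (square) is the highest library for 5 genes.

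**Figure D2:**
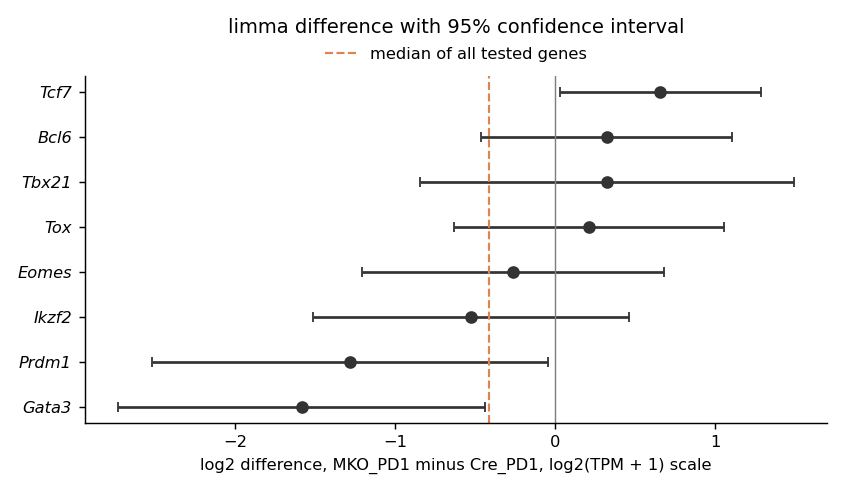
Difference between MKO_PD1 and Cre_PD1 tumours on the log2(TPM + 1) scale for the 8 genes tested, with its 95% confidence interval from limma and, as a dashed line, the median of all tested genes at -0.42. The intervals of Tcf7, Gata3 and Prdm1 leave out 0, and none of the 8 passed after adjustment over all genes.

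Tcf7 (chr11:52252371-52283014 in GRCm38, minus strand) had 6.69, 6.53 and 7.27 TPM in the MKO_PD1 tumours, against 3.36, 4.55 and 4.04 TPM in the Cre_PD1 tumours. All 3 knockout tumours were alike and lay above the highest control. The level averaged 6.83 ± 0.387 TPM in MKO_PD1 and 3.98 ± 0.600 TPM in Cre_PD1 (SD, n = 3 each), a ratio of 1.71. The log2 difference was 0.66 with a standard error of 0.27 and did not pass (limma adjusted p = 0.173). These levels rested on 265, 197 and 232 reads in MKO_PD1 and 103, 165 and 107 reads in Cre_PD1. Tcf7 was the one member for which MKO_PD1 replicate 1 was not the lowest library.

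The T cell content was read from 12 pan-T cell genes, the CD3 chains, the T cell receptor constant regions and signalling partners such as Lat. Their summed level was 80.3, 437 and 104 TPM in the MKO_PD1 tumours, against 114, 158 and 191 TPM in the Cre_PD1 tumours. All 11 tested genes of the list were highest in MKO_PD1 replicate 2, and 10 were lowest in MKO_PD1 replicate 1. None of the 11 passed, and the groups overlapped for each of them. T cell RNA was therefore present in all 6 tumours, and most plentiful in 1 knockout tumour. Likewise Cd8a, the CD8 coreceptor, had 7.65, 67.2 and 13.3 TPM in MKO_PD1, against 13.8, 16.7 and 23.3 TPM in Cre_PD1 tumours.

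Set against 100 TPM of pan-T cell genes, Tcf7 had 8.33, 1.49 and 7.01 TPM in the MKO_PD1 tumours and 2.94, 2.88 and 2.12 TPM in the Cre_PD1 tumours. MKO_PD1 replicate 2, with the most T cell RNA, thus had the lowest Tcf7 per T cell RNA, and the groups overlapped (log2 difference 0.58, two-sided exact permutation p = 0.4, 0.72 after adjustment over 9 genes). That difference was 1.26 without MKO_PD1 replicate 2, 0.17 without replicate 1 and 0.30 without replicate 3. The smallest p that 3 against 3 tumours can give is 0.1. Across the 6 libraries, the log2 level of Tcf7 spanned 0.92 and its log2 ratio to the pan-T cell mean spanned 2.18. Dividing by T cell genes therefore widened the spread of Tcf7, where it narrowed that of the other members except Bcl6.

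Tbx21 behaved in the opposite way. The gene (chr11:97098071-97115331, minus strand) had 1.78, 9.61 and 2.47 TPM in the MKO_PD1 tumours, against 2.17, 2.74 and 3.39 TPM in the Cre_PD1 tumours. MKO_PD1 replicate 2 stood 5.41-fold above replicate 1, and of the other 2 knockout tumours replicate 1 lay below and replicate 3 within the control range. The means were 4.62 ± 4.34 TPM in MKO_PD1 and 2.77 ± 0.610 TPM in Cre_PD1 (SD, n = 3 each), and the log2 difference of 0.32 had a 95% confidence interval of -0.85 to 1.49 (limma adjusted p = 0.649). Without MKO_PD1 replicate 2 that difference turned to -0.27.

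Per 100 TPM of pan-T cell genes, Tbx21 was nearly level, at 2.21, 2.20 and 2.38 TPM in the MKO_PD1 tumours and 1.90, 1.73 and 1.78 TPM in the Cre_PD1 tumours. Its log2 level spanned 1.93 across the 6 libraries and its log2 ratio to the pan-T cell mean only 0.38. Every MKO_PD1 tumour lay above every Cre_PD1 tumour in this ratio, by 0.24 on the log2 scale (two-sided exact permutation p = 0.1, the smallest possible, 0.3 after adjustment over 9 genes). With the median of the pan-T cell genes in place of their mean, the difference was 0.17 and the separation was lost (two-sided exact permutation p = 0.4).

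Eomes (chr9:118478212-118486132, plus strand), the other T-box member, had 0.606, 3.42 and 0.956 TPM in the MKO_PD1 tumours, against 2.01, 1.56 and 2.11 TPM in the Cre_PD1 tumours. MKO_PD1 replicate 2 was the highest library and the other 2 knockout tumours lay below every control. The means were 1.66 ± 1.53 TPM in MKO_PD1 and 1.90 ± 0.293 TPM in Cre_PD1 (SD, n = 3 each), with a log2 difference of -0.26 (standard error 0.41, limma adjusted p = 0.645). Without MKO_PD1 replicate 1 that difference turned to 0.03. Counts were low, from 33 to 142 reads in MKO_PD1 and from 77 to 85 reads in Cre_PD1.

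The balance of the pair was more even than either gene. Eomes over Tbx21 was 0.341, 0.356 and 0.387 in the MKO_PD1 tumours, against 0.925, 0.570 and 0.623 in the Cre_PD1 tumours. In this plain ratio of TPM the 3 knockout tumours sat close together although their T cell RNA differed severalfold. As differences of log2(TPM + 1) they were -0.791, -1.264 and -0.827, against -0.076, -0.547 and -0.496 in the controls. The closeness thus depended on the form of the ratio. All 3 lay below the controls in both forms (log2 difference -0.59, two-sided exact permutation p = 0.1, 0.2 after adjustment over 6 pairs). Eomes is shared with NK cells, and of their 8 marker genes Klra4 alone had 8.88, 55.9 and 43.3 TPM in MKO_PD1, against 157, 109 and 74.1 TPM in Cre_PD1 tumours. The other 7 NK cell genes summed to 15.2, 100 and 25 TPM in MKO_PD1 and to 26.9, 31.9 and 42.1 TPM in Cre_PD1, and the part of NK cells in this ratio was not tested. The 11 tested effector genes that T-bet or EOMES bind gave 0 called and none without overlap. Their median log2 difference was 0.28, against -0.42 over all tested genes. All 11 were highest in MKO_PD1 replicate 2, among them Ccl5, a chemokine, with 76.9, 571 and 118 TPM in MKO_PD1, against 84.9, 147 and 121 TPM in Cre_PD1.

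Tox (chr4:6686353-6991557, minus strand) had 0.812, 3.24 and 1.27 TPM in the MKO_PD1 tumours, against 1.06, 1.16 and 1.53 TPM in the Cre_PD1 tumours. MKO_PD1 replicate 2 alone stood out, and the other 5 tumours lay within 0.812 to 1.53 TPM. The log2 difference was 0.21 (standard error 0.37, 95% confidence interval -0.63 to 1.05, limma adjusted p = 0.685), and it turned to -0.15 without MKO_PD1 replicate 2. Per 100 TPM of pan-T cell genes Tox had 1.01, 0.740 and 1.22 TPM in MKO_PD1 and 0.927, 0.733 and 0.802 TPM in Cre_PD1, with overlap. The exhausted T cell list holds inhibitory receptors such as Pdcd1, Havcr2 and Lag3. Of its 10 tested genes 0 were called and none was without overlap. Their median log2 difference was -0.23, against -0.42 over all tested genes. All 10 were highest in MKO_PD1 replicate 2 and lowest in MKO_PD1 replicate 1, as Tnfrsf9, a costimulatory receptor, was with 31.6, 253 and 96.7 TPM, against 196, 214 and 165 TPM in Cre_PD1.

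Tcf7 over Tox sets the factor of stem-like cells against the factor that installs the exhausted state. The ratio was 8.25, 2.02 and 5.73 in the MKO_PD1 tumours, against 3.17, 3.92 and 2.64 in the Cre_PD1 tumours. The highest and the lowest value were both from knockout tumours, and the groups overlapped (log2 difference 0.45, two-sided exact permutation p = 0.4, 0.4 after adjustment over 6 pairs). Of 8 tested stem-like or memory genes, 0 were called and 3 were higher in MKO_PD1 without overlap, S1pr1 and Id3 among them. Over all tested genes 10.1% were higher without overlap. S1pr1, a receptor for leaving tissue that endothelium uses too, averaged 34.9 ± 5.14 TPM in MKO_PD1 and 21.4 ± 1.29 TPM in Cre_PD1 (SD, n = 3 each). Lef1, the partner of TCF-1 in T cells, averaged 0.329 ± 0.200 TPM in MKO_PD1 and 0.149 ± 0.0845 TPM in Cre_PD1 and was too low to be tested.

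Foxp3 (chrX:7573644-7595245, plus strand) was the lowest member, with 0.133, 2.30 and 0.393 TPM in the MKO_PD1 tumours and 1.01, 0.346 and 0.897 TPM in the Cre_PD1 tumours. These values rested on 8, 105 and 19 reads in MKO_PD1 and on 47, 19 and 36 reads in Cre_PD1. The highest and the lowest library were both knockout tumours, and 8 reads have an exact 95% Poisson interval of 3.45 to 15.8, for counting error only. With no filter on low values the log2 difference was 0.01 (95% confidence interval -1.01 to 1.02, limma adjusted p = 0.996 over 30804 genes). Exons of Foxp3 overlap those of Flicr, Ccdc22 and Ppp1r3f, and the strand setting of the counting is not given in the sources used here, so reads of these genes may not be fully told apart. Shorter overlaps with antisense or neighbouring genes, of 21 to 260 exon bases, touch Tox, Eomes, Gata3, Ikzf2 and Bcl6.

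Ikzf2 (chr1:69531214-69687245, minus strand) had 0.453, 3.36 and 1.62 TPM in the MKO_PD1 tumours, against 2.59, 2.07 and 3.53 TPM in the Cre_PD1 tumours. MKO_PD1 replicates 1 and 3 lay below every control and replicate 2 among them (log2 difference -0.53, standard error 0.43, limma adjusted p = 0.385). The difference was -0.12 without MKO_PD1 replicate 1 and -0.92 without replicate 2. Foxp3 over Ikzf2 was 0.294, 0.683 and 0.242 in MKO_PD1 and 0.390, 0.167 and 0.254 in Cre_PD1, with overlap (two-sided exact permutation p = 0.2, 0.3 after adjustment over 6 pairs). The test used differences of log2(TPM + 1), in which MKO_PD1 replicate 1 was the highest library, at -0.359, and not replicate 2. Foxp3 over Tbx21, regulatory against type 1, was 0.0750, 0.239 and 0.159 in MKO_PD1 and 0.465, 0.126 and 0.264 in Cre_PD1, also with overlap (two-sided exact permutation p = 0.4, 0.4 after adjustment). None of the 6 tested regulatory T cell genes was called or free of overlap. Their median log2 difference was -0.29, against -0.42 over all tested genes. Tnfrsf18, the receptor GITR, had 5.90, 24.9 and 13.3 TPM in MKO_PD1, against 26.1, 14.7 and 23.1 TPM in Cre_PD1.

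Gata3 (chr2:9857078-9890034, minus strand) had 1.74, 9.26 and 6.80 TPM in the MKO_PD1 tumours, against 20.3, 13.4 and 18.4 TPM in the Cre_PD1 tumours. All 3 knockout tumours lay below the lowest control. The means were 5.93 ± 3.83 TPM in MKO_PD1 and 17.4 ± 3.60 TPM in Cre_PD1 (SD, n = 3 each), a ratio of 0.342 and the one farthest from 1 among the 9 genes. The log2 difference of -1.59 (standard error 0.50, 95% confidence interval -2.73 to -0.44) did not pass over all genes (limma adjusted p = 0.168). Reads numbered 91, 368 and 286 in MKO_PD1, against 822, 638 and 641 in Cre_PD1.

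Prdm1 (chr10:44437177-44528501, minus strand) gave the same order of groups, with 3.43, 17.9 and 15.4 TPM in the MKO_PD1 tumours, against 30.1, 21.5 and 27.4 TPM in the Cre_PD1 tumours. It was the most abundant member in the control tumours, at 26.3 ± 4.40 TPM, against 12.2 ± 7.72 TPM in MKO_PD1 (SD, n = 3 each). The log2 difference was -1.29 (standard error 0.54, 95% confidence interval -2.52 to -0.05, limma adjusted p = 0.174). Without MKO_PD1 replicate 2, Gata3 at -1.97 (limma adjusted p = 0.029) and Prdm1 at -1.67 (limma adjusted p = 0.043) passed, as did 45.9% of all genes tested in that fit. Without MKO_PD1 replicate 1 the differences shrank to -1.02 for Gata3 and -0.62 for Prdm1, and neither passed.

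Gata3 and Prdm1 followed T cell RNA between MKO_PD1 replicates 1 and 2, but not between the groups. Division by the pan-T cell mean narrowed their log2 span over the 6 libraries only in part. That span went from 2.958 to 2.760 for Gata3 and from 2.811 to 2.425 for Prdm1. Per 100 TPM of pan-T cell genes Gata3 had 2.17, 2.12 and 6.56 TPM in the MKO_PD1 tumours, against 17.8, 8.44 and 9.64 TPM in the Cre_PD1 tumours. Prdm1 had 4.27, 4.09 and 14.9 TPM in MKO_PD1, against 26.3, 13.6 and 14.4 TPM in Cre_PD1. On the log2 scale the ratios differed by -1.67 for Gata3 and -1.37 for Prdm1, with no overlap for the mean of log2 values, and for each the two-sided exact permutation p was 0.1, or 0.3 after adjustment over 9 genes. In the plain ratio of TPM, MKO_PD1 replicate 3 had more Prdm1 per T cell RNA than Cre_PD1 replicates 2 and 3, so the separation of Prdm1 depended on the form of the ratio.

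Tbx21 over Gata3, type 1 against type 2, was 1.02, 1.04 and 0.363 in the MKO_PD1 tumours, against 0.107, 0.205 and 0.185 in the Cre_PD1 tumours. Every knockout tumour was higher (log2 difference 1.91, two-sided exact permutation p = 0.1, 0.2 after adjustment over 6 pairs). The ratio compares T cells only if both transcripts come from them, which bulk RNA does not show. Of the other type 2 genes, 4 of 8 were high enough to be tested and 0 were called. Areg was lower and Il17rb was higher in MKO_PD1 without overlap, against 28.9% lower and 10.1% higher over all tested genes. Areg, a growth factor that epithelia make too, had 7.85, 24.8 and 26.0 TPM in MKO_PD1, against 109, 52.3 and 29.4 TPM in Cre_PD1. The other 7 type 2 genes summed to 12.4, 14.9 and 14.5 TPM in MKO_PD1 and to 10.7, 11.8 and 14.9 TPM in Cre_PD1, with overlap. Il17rb made up most of that sum in MKO_PD1 replicates 1 and 3. It had 10.6, 4.78 and 9.57 TPM in MKO_PD1, against 3.13, 2.99 and 3.14 TPM in Cre_PD1. Il4, a type 2 cytokine, had 1.12, 6.36 and 3.01 TPM in MKO_PD1, against 5.93, 5.84 and 9.21 TPM in Cre_PD1. The groups overlapped for Il4 (log2 difference -0.98, limma adjusted p = 0.196).

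Bcl6 (chr16:23965052-23988852, minus strand) had 5.31, 12.2 and 8.33 TPM in the MKO_PD1 tumours, against 5.67, 6.72 and 6.69 TPM in the Cre_PD1 tumours. The knockout tumours lay on both sides of the narrow control range (means 8.60 ± 3.43 TPM in MKO_PD1 and 6.36 ± 0.602 TPM in Cre_PD1, SD, n = 3 each). The log2 difference was 0.32 (standard error 0.34, 95% confidence interval -0.46 to 1.11, limma adjusted p = 0.499), and it was 0.06 without MKO_PD1 replicate 2 and 0.59 without replicate 1. Bcl6 over Prdm1, the antagonist pair, was 1.55, 0.681 and 0.540 in MKO_PD1, against 0.188, 0.313 and 0.244 in Cre_PD1, higher in every knockout tumour (log2 difference 1.61, two-sided exact permutation p = 0.1, 0.2 after adjustment over 6 pairs). Of the 7 follicular helper genes, 1 was high enough to be tested. Plasma cells also need Blimp-1, and of the 4 genes tested from their list 2 were higher and 1 was lower without overlap. The shares over all tested genes were 10.1% higher and 28.9% lower. The 2 higher were Jchain and Xbp1. Xbp1 had 354, 211 and 251 TPM in MKO_PD1, against 176, 181 and 193 TPM in Cre_PD1. It was highest in the 2 libraries with the most hepatocyte RNA. Mzb1 and Tnfrsf17, also of the list, were too low to be tested. Jchain, the antibody joining chain, averaged 23.4 ± 9.21 TPM in MKO_PD1 and 10.7 ± 2.63 TPM in Cre_PD1, and Sdc1, which epithelia express too, 315 ± 102 TPM in MKO_PD1 and 605 ± 121 TPM in Cre_PD1 (SD, n = 3 each).

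**Figure D3:**
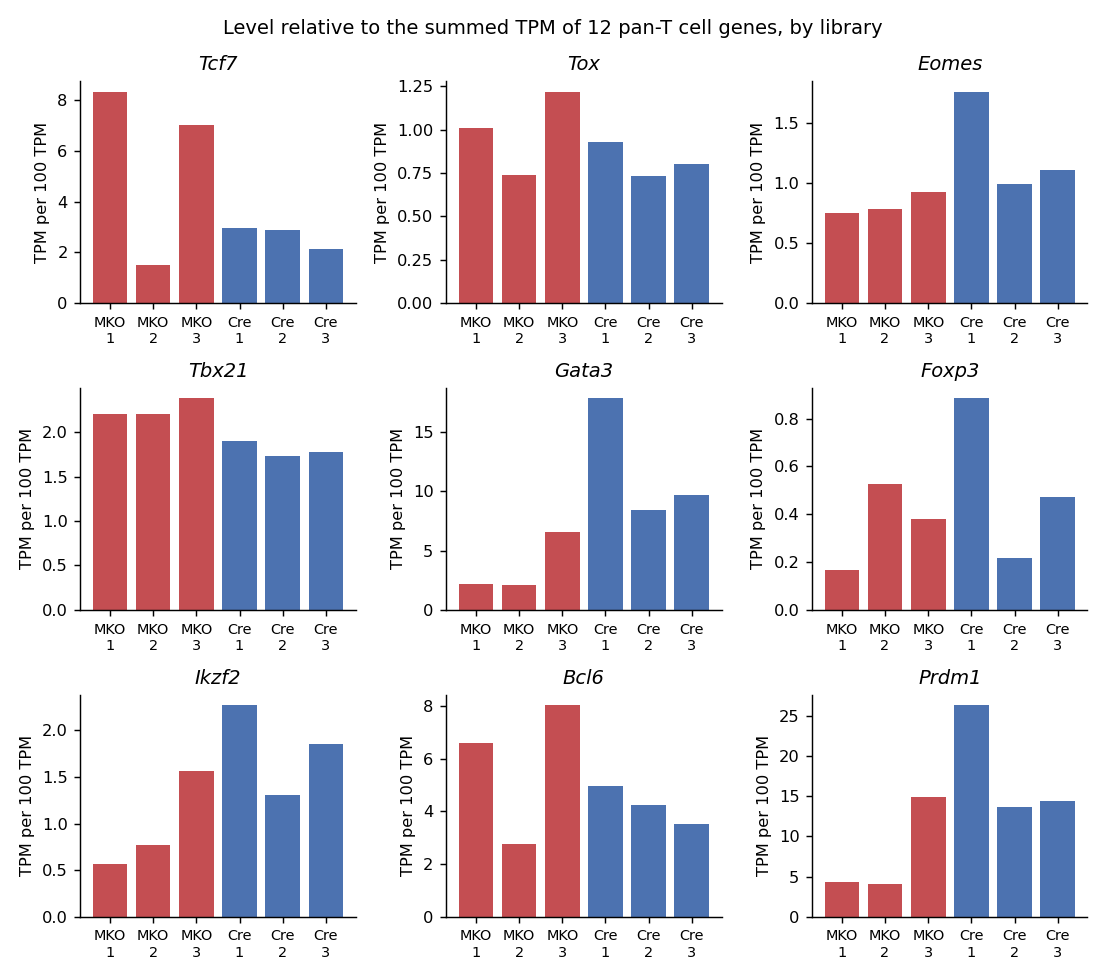
Level of each gene per 100 TPM of the 12 pan-T cell genes, by library, with the 3 MKO_PD1 tumours left of the 3 Cre_PD1 tumours. Tbx21 stays between 1.73 and 2.38, while Tcf7 runs from 1.49 to 8.33 and Gata3 from 2.12 to 17.8.

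Median-of-ratios scaling brought the median log2 difference of all tested genes from -0.42 with TPM to -0.01. No tested member changed direction, and Tcf7 at 1.06, Bcl6 at 0.73, Gata3 at -1.20 and Prdm1 at -0.86 moved by about as much as that median. With it 4 of the 8 tested members, Tcf7, Tox, Tbx21 and Bcl6, were higher in MKO_PD1 without overlap, against 18.9% of genes, and 2, Gata3 and Prdm1, were lower, against 21.1%. Bcl6 then had 9.18, 10.2 and 9.53 in the MKO_PD1 tumours, against 4.79, 6.04 and 5.39 in the Cre_PD1 tumours, in scaled TPM.

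The likeness of each gene to the marker lists was measured as the root mean square distance between log2 profiles over the 6 libraries, each centred on its own mean, where 0 is the same profile. Low genes have flatter profiles on this scale, so distances are read within a gene. Tbx21 was nearest the pan-T cell list, at 0.156, and next the effector list, at 0.166. Eomes at 0.169 and Ikzf2 at 0.215 were nearest the NK cell list, with the regulatory T cell list next, at 0.226 and 0.264. Klra4 is 1 of the 6 genes in the NK cell mean, and the distances without Klra4 were not measured. Foxp3 was 0.267 from the regulatory T cell list, with only the other T cell transcription factors nearer, at 0.259. Tox was nearest those other factors, at 0.104, and Bcl6 nearest the stem-like list at 0.096 and the macrophage list at 0.106.

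Gata3 at 0.234 and Prdm1 at 0.286 were nearest the tumour epithelium list of keratins and ductal genes, and no other list came nearer than 0.685 to Gata3 or 0.605 to Prdm1. That list summed to 2472, 9858 and 6648 TPM in the MKO_PD1 tumours, against 24716, 18242 and 18127 TPM in the Cre_PD1 tumours. In MKO_PD1, 5 of its 8 genes were lower without overlap, against 28.9% of all tested genes. Krt19, a keratin of ductal epithelium, had 213, 1224 and 868 TPM in MKO_PD1, against 4477, 2882 and 2247 TPM in Cre_PD1. The summed level runs in the same order as Gata3 within the knockout group, lowest in replicate 1 and highest in replicate 2. That order is not particular to this list. The pan-T cell sum had it too, at 80.3, 437 and 104 TPM, as did the exhausted, regulatory T cell and NK cell sums. The part of epithelial RNA in the levels of Gata3 and Prdm1 was not tested.

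Tcf7 was nearest the endothelial list, at 0.170, with the plasma cell list at 0.310 and the stem-like or memory T cell list at 0.311 next. The endothelial genes summed to 196, 127 and 184 TPM in the MKO_PD1 tumours, against 74.2, 102 and 94.9 TPM in the Cre_PD1 tumours. In MKO_PD1, 5 of the 7 were higher without overlap, against 10.1% of all tested genes. Cdh5, the junction protein of endothelium, averaged 40.4 ± 1.5 TPM in MKO_PD1 and 25.5 ± 0.641 TPM in Cre_PD1 (SD, n = 3 each). Hepatocyte genes were higher without overlap for 10 of 12. Their list lay at 0.829 from Tcf7, farther than the pan-T cell list at 0.772. The part of either in the level of Tcf7 was not tested. Read within each gene, the nearest list was one of T cell genes for Tbx21, Tox, Foxp3 and Bcl6. It was the NK cell list, with Klra4 in it, for Eomes and Ikzf2, and one of other cells for Tcf7, Gata3 and Prdm1.

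**Figure D4:**
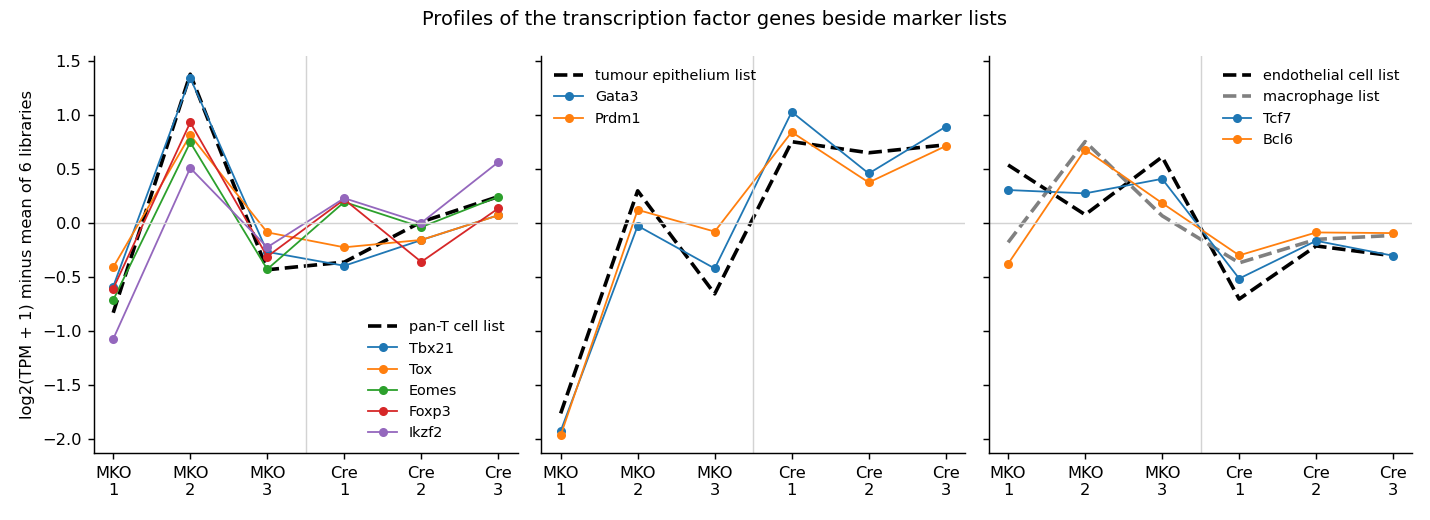
Centred log2(TPM + 1) profiles over the 6 libraries, MKO_PD1 left and Cre_PD1 right, of the genes beside marker lists drawn as dashed lines; lines join libraries to guide the eye and carry no order. The peak of MKO_PD1 replicate 2 is shared by Tbx21 and the pan-T cell list, and Gata3 and Prdm1 run with the tumour epithelium list.

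**Figure D5:**
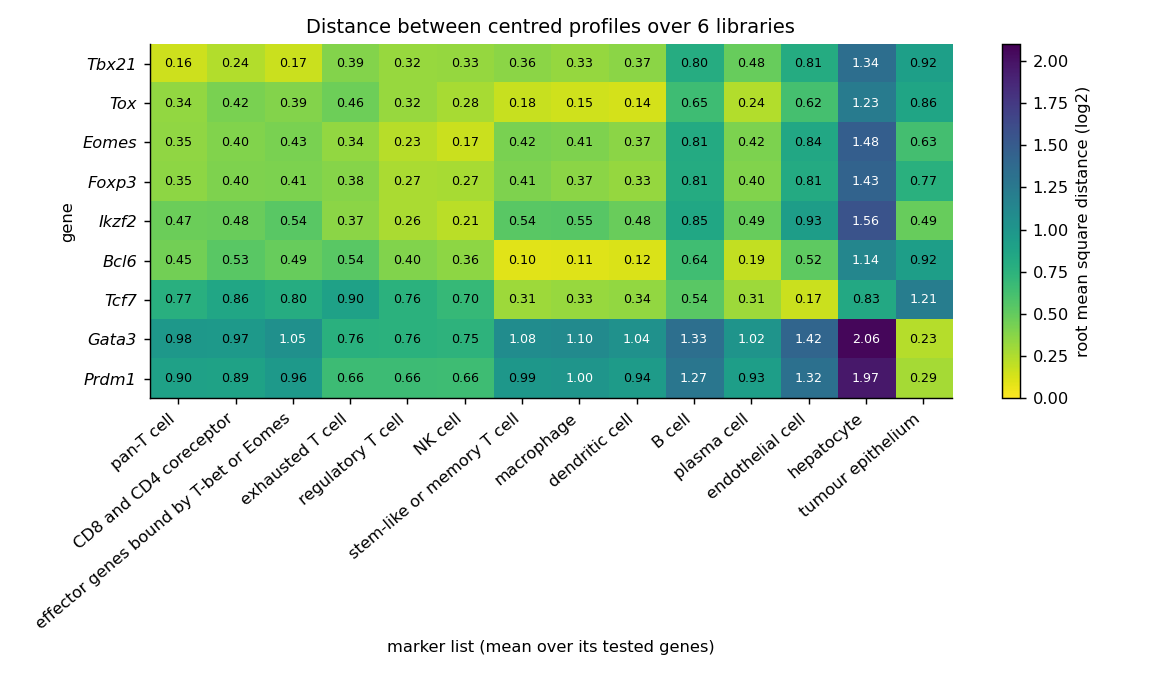
Root mean square distance in log2 between the centred profile of each gene and the mean profile of marker lists over 6 libraries, leaving out the type 2, follicular helper and other transcription factor lists, darker for larger distances. The nearest list lies at 0.156 for Tbx21 (pan-T cell), 0.234 for Gata3 (tumour epithelium) and 0.170 for Tcf7 (endothelium).

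Among the members themselves the closest pair was Tox and Bcl6, at 0.147, then Eomes and Foxp3, at 0.171, and Gata3 and Prdm1, at 0.189. Tcf7 and Gata3 were the farthest apart, at 1.29. Among single genes of at least 5 TPM, those most like each member were found over the 6 libraries. Nearest Tbx21 was Sash3, an adaptor protein of lymphocytes, at 0.051, with 13.1, 48.5 and 16.5 TPM in MKO_PD1 and 15.2, 17.3 and 21.8 TPM in Cre_PD1 tumours, and next was Rinl, at 0.053. Tox had Dpt and Ebi3, Eomes had Gltp and E2f2, Ikzf2 had Dcp2 and Prkx, and Foxp3 had Gbgt1 and Lyl1. Bcl6 had D16Ertd472e and Abtb2, and Tcf7 had N4bp2l1, at 0.076, and Mocs1.

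Gata3 was most like Arhgef40, at 0.062, and Llgl1, a cell polarity gene, at 0.064. Llgl1 had 13.5, 47.8 and 38.3 TPM in MKO_PD1, against 99.2, 65.5 and 92.1 TPM in Cre_PD1. Prdm1 was most like Celf4, at 0.094, and F2r, the thrombin receptor, at 0.095. F2r had 54.9, 238 and 174 TPM in MKO_PD1, against 339, 273 and 328 TPM in Cre_PD1.

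Of 23 other T cell transcription factors tested, 0 were called, 5 were higher and 1 was lower in MKO_PD1 without overlap, with a median log2 difference of 0.01. Over all tested genes the median was -0.42, and 10.1% were higher and 28.9% lower without overlap. Among the 5 were Rora, Id3, Maf and Hopx. Rora, a nuclear receptor, had 6.58, 6.16 and 7.06 TPM in MKO_PD1, against 2.63, 3.30 and 3.25 TPM in Cre_PD1 (log2 difference 0.91, limma adjusted p = 0.168). Like Tcf7, it was no higher in the knockout tumour with the most T cell RNA than in the other knockout tumours. Zbtb7b, which directs CD4 lineage choice, was the 1 lower, at 54.3 ± 12.1 TPM in MKO_PD1 and 92.4 ± 16.5 TPM in Cre_PD1 (SD, n = 3 each). Cd4 itself averaged only 5.34 ± 3.85 TPM in MKO_PD1 and 6.82 ± 3.50 TPM in Cre_PD1. Which cells the Zbtb7b RNA came from was not tested.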

How the data were processed

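Polyadenylated RNA of 6 tumours was sequenced, 3 per group as the labels give them. Per the submitters' processing notes, reads were aligned with STAR 2.7.10a to mm10 and counted with featureCounts 2.0.3 of Subread. The deposited values are a signal that the authors named TPM: reads per exon length times a constant of 8.03 shared by all libraries, with column sums of 70363 to 105281. With GENCODE M21 exon lengths, 98.5% of the genes above 0 gave whole reads in every library, within 0.01. The length of Tcf7 did not, and its reads are the smallest whole numbers in the same proportions. Reads carry no molecular identifiers, so intervals cover counting error only.

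Columns were rescaled to 1000000 and analysed as log2(TPM + 1) with limma 3.58.1 in R 4.3.3 (trend, no covariate), as MKO_PD1 minus Cre_PD1. Genes at 1 TPM or more in at least 3 libraries were tested, with Benjamini-Hochberg adjustment and a threshold of 0.05. Ratios were compared by exact permutation of the 6 libraries in Python 3.11.15. They were formed as differences of log2(TPM + 1) within a library, the pan-T cell level being the mean of these over 12 genes. The code was tested on simulated data with a common spread for all genes and no outlying library, which does not measure error rates in these data. The 17 lists were described by counts and medians only. The genes named are the 9 members, the 2 genes nearest each in profile, and from each list the 2 of smallest unadjusted p and, for cell type lists, the 2 most abundant. Il4, Id3, Lef1, Maf, Hopx and Zbtb7b were named in addition, after their values were seen. Sums of the type 2 and NK cell lists without Areg and Klra4 were added after their values were seen. Members and lists were chosen with earlier results of these data known. Where nothing tells separate animals apart beyond the design text, p-values measure the spread between these libraries. Some genes of the lists are counted but not reported here by name.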

Additional observations from a re-analysis of the deposited data

How the results depend on the processing

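Against 2 genes called, limma called 0 with a filter of 5 TPM, with no filter, with voom or with a replicate block, 1 with median-of-ratios or quantile scaling, 10551 with sample weights, and 0 to 7314 when each library was left out in turn. Against 0 members called, sample weights called 4 (Tcf7, Eomes, Gata3, Prdm1) and leaving out libraries 0 to 2. The weights rested on MKO_PD1 replicate 3 (11, against 0.190 and 0.203 for replicates 1 and 2). Same-numbered libraries deviated with correlations of -0.42, -0.27 and 0.05. These gave no sign that the numbers pair the libraries, but so few values cannot exclude it. Leaving out libraries moved the log2 difference of Tox between -0.15 and 0.47, of Eomes between -0.704 and 0.027 and of Tbx21 between -0.27 and 0.70, and sample weights gave Tbx21 -0.11. Relative to pan-T cell genes it moved Tox between -0.033 and 0.428, Foxp3 between -0.28 and 0.20 and Bcl6 between -0.002 and 0.636. The causes were not tested. Median-of-ratios scaling gave 4 members higher without overlap, against 1 in TPM. The directions of the level differences of Tcf7, Ikzf2, Bcl6, Gata3 and Prdm1 kept their sign under every alternative run, but leaving out libraries moved Ikzf2 between -0.915 and -0.123, Bcl6 between 0.063 and 0.593, and Tcf7 relative to pan-T cell genes between 0.170 and 1.258. All 6 pair ratios kept their sign. Groups of 3 limit every exact p to 0.1 or more.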

Other observations

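Cells that present antigen to T cells were read from the same fit. Of 10 macrophage genes, 0 were called and 5 were higher in MKO_PD1 without overlap, with a median log2 difference of 0.53. Over all tested genes 10.1% were higher and 28.9% lower without overlap, with a median of -0.42. Csf1r, the growth factor receptor of macrophages, had 116, 177 and 132 TPM in the MKO_PD1 tumours, against 82.0, 82.8 and 95 TPM in the Cre_PD1 tumours (limma adjusted p = 0.168). C1qa, a complement gene of macrophages, had 808, 1660 and 853 TPM in MKO_PD1, against 742, 948 and 950 TPM in Cre_PD1, with overlap. Of 5 tested dendritic cell genes 0 were called and 1 was higher without overlap, with a median of 0.26. The 4 tested B cell genes had a median of 0.34 with overlap for each, and the 3 CD4 and CD8 coreceptor genes a median of 0.14. The 6 tested NK cell genes had a median of -0.04, and 1, Klra4, was lower without overlap.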
